A study of Homo sapiens with 6 samples.

Results

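The mRNAs described here encode the proteins of the signal recognition particle (SRP) and of its receptor, namely SRP9, SRP14, SRP19, SRP54, SRP68, SRP72, SRPRA and SRPRB. These 8 genes, of 20176 protein-coding genes annotated on GRCh37, were chosen by name because SRP mRNAs are reported CELF1 targets in muscle and cancer cells. Their data are the 20-bp bins whose centre lies in an exon of any annotated transcript on the transcript strand, which were 447 of 816781 listed bins in SK-Mel-103, and 380 of 780750 and 442 of 862731 in replicates 1 and 3 of UACC-62. Where 3 values follow each other below, they stand in this order. CELF1 (also named CUGBP1), an RNA-binding protein that recognises GU-rich elements (GREs) in 3′ UTRs, was pulled down with the antibody ab9549 from lysates of formaldehyde-fixed cells of the established human melanoma lines SK-Mel-103 and UACC-62, grown in DMEM with serum, and the co-purified RNA (IP) was sequenced alongside input RNA. The series holds 3 IP and 3 input samples, and neither a control antibody nor CELF1-depleted cells were analysed here. SK-Mel-103 had 1 IP sample, UACC-62 had 2 (numbered replicates 1 and 3 in the labels), and input was read only from the column that sets each IP bin against its own input.

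SRP is a ribonucleoprotein built on the 7SL RNA, which recognises signal sequences as they leave the ribosome and brings the ribosome to the endoplasmic reticulum. SRP9 and SRP14 form the Alu domain that slows elongation, SRP19 assembles the S domain, SRP54 is the GTPase that holds the signal sequence, and SRP68 and SRP72 bind 7SL as a dimer. SRPRA and SRPRB are the subunits of the receptor in the membrane of the endoplasmic reticulum. CELF1 is known to alter decay, translation and splicing of mRNAs with GREs.

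The files list only bins that passed the peak caller against input, so each value below is conditional on that. Summed over the listed bins, IP depth was 10958459, 11333805 and 14436573 reads, input depth was 8453517, 10161917 and 8900292 reads, and 9.69%, 15.9% and 29.2% of the bins had no input read. Log2 IP over input is the log2 ratio of a gene's IP and input reads, each divided by those totals, with 1 read added to both. The intervals are exact (Clopper-Pearson) 95% intervals, and cover counting error only, since PCR reads without molecular identifiers are not independent molecules. With 1 sample against 2 no test between the lines was made. Of 9 melanocyte lineage markers, 1, 7 and 6 had at least 100 input reads, and the MITF mRNA had 18, 6036 and 5000. SOX10 was the marker that reached this in SK-Mel-103, with 864 input reads, and PMEL and TYRP1 had 0 in every sample. Of the markers of other cells, 0 of 4 reached 100 reads in any sample, and PECAM1, also planned, had no value. The part of this difference between the lines in the results below was not tested.

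Bins of SRP9, SRP14, SRP72 and SRPRB are shown first, namely those with most IP reads and, for SRP9 and SRP14, others that are named below. Each is read 5′ to 3′ on the transcript strand of GRCh37, and capitals mark the 5-mer TGTTT, which was searched with TGTGT on that strand only.
SRP9, most IP reads, 3′ UTR, chr1:225977981-225978000, plus strand: ttatatttgtatttcaccac
SRP9, common peak with a 5-mer, 3′ UTR, chr1:225977941-225977960, plus strand: gttaTGTTTtccagtaaact
SRP9, common peak with the highest IP over input in SK-Mel-103, 3′ UTR, chr1:225977301-225977320, plus strand: agattatttgatgttaggta
SRP14, most IP reads, 3′ UTR, chr15:40328261-40328280, minus strand: tgtgaagagcaagctatcat
SRP14, the other common peak, 3′ UTR, chr15:40328301-40328320, minus strand: tactcctggattatagatta
SRP14, bin over the GRE, 3′ UTR, chr15:40328241-40328260, minus strand: taaacatgtcTGTTTatcag
SRP72, most IP reads, 3′ UTR, chr4:57368461-57368480, plus strand: gcattcctaaatatctgctt
SRPRB, most IP reads, 3′ UTR, chr3:133538781-133538800, plus strand: ttaagttcagttctccctta

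The GREs themselves were 11-nt stretches within 2 mismatches of either consensus of the methods (repeats of UG or of UUUG) in annotated 3′ UTRs, again in transcript sense only, with overlapping matches joined. Those of SRP14 and SRP72 are shown, with the SRP19 stretch that holds a match without mismatch. The other GREs of SRP19 and that of SRP9 are not shown.
SRP14, chr15:40328244-40328254, minus strand: tgtctgtttat
SRP19, chr5:112204092-112204114, plus strand: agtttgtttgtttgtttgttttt
SRP72, upstream GRE, chr4:57368289-57368301, plus strand: tatctgtgtgtgc
SRP72, downstream GRE, chr4:57369758-57369768, plus strand: tgtgtatgtgt

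No SRP mRNA held a larger share of IP than of input reads over its listed exonic bins. All 24 of 24 values of log2 IP over input were below 0, so that all 8 genes were below 0 in all 3 samples. Among 5318 protein-coding genes with at least 100 IP reads in every sample, a limit that all 8 SRP genes reached, 55.8% were below 0 in all 3 samples and 28.5% were above 0 in all 3. All 8 genes were also below the median of those genes in every sample, the medians being -0.28, -0.72 and -0.48. The share of the 5318 genes below these medians in all 3 samples was not computed. The median over all protein-coding genes with listed bins in the sample was higher, at 0.05, -0.27 and 0.04. All 8 genes lay below that median in all 3 samples, as did 55.8% of the 5318 genes. The median over the SRP genes was -0.96, -1.77 and -1.50. The SRP genes lay between percentiles 4.85 and 46.6 of the 5318 genes in SK-Mel-103, and between 5.23 and 35 and between 14.6 and 37.3 in the UACC-62 replicates.

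**Figure D1:**
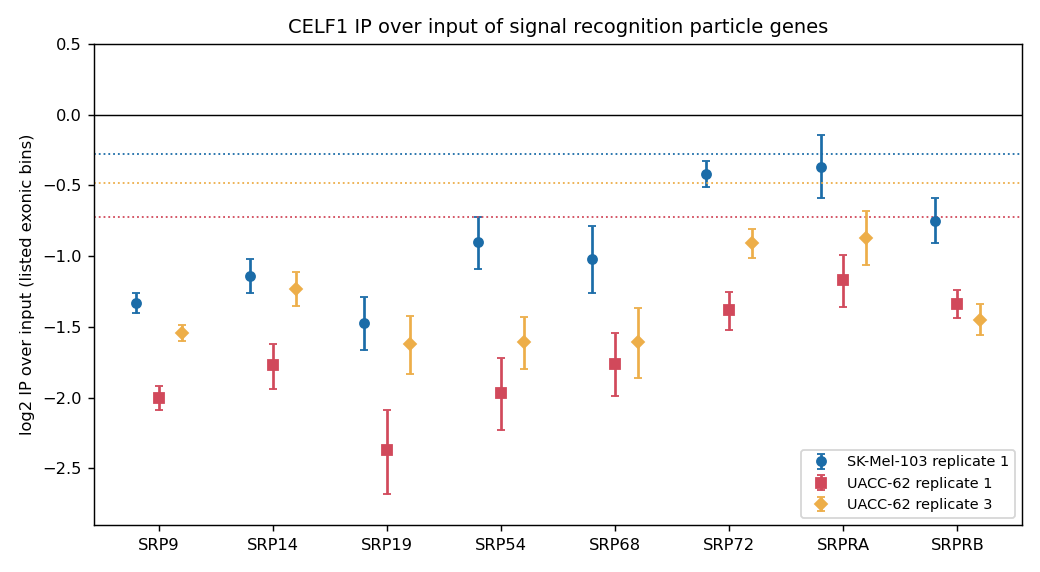
Log2 IP over input (y axis) of the 8 SRP genes (x axis) in the 3 IP samples, with 95% counting intervals as bars; dotted lines give the median of 5318 protein-coding genes in the sample of the same colour. All 24 points lie below 0 and below their sample's dotted line, with SRPRA nearest to it and SRP19 lowest in each sample.

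SRP9 (ENSG00000143742, chr1:225965515-225978170, plus strand), a subunit of the Alu domain, had the most reads of the group. Its exons held 2349 IP reads in SK-Mel-103 and 1512 and 3688 in the UACC-62 replicates, against 4563, 5440 and 6635 input reads. Log2 IP over input was -1.33 (interval -1.40 to -1.26), -2.0 (-2.09 to -1.92) and -1.54 (-1.60 to -1.49). SK-Mel-103 was the highest of the 3 and the UACC-62 mean was -1.77 ± 0.32 (SD, n = 2). SRP14 (ENSG00000140319, chr15:40327891-40331382, minus strand), its partner in the Alu domain, held 906, 430 and 916 IP reads against 1542, 1321 and 1325 input reads. Its log2 IP over input was -1.14, -1.77 and -1.23, and UACC-62 replicate 3 lay nearer to SK-Mel-103 than to the other UACC-62 sample.

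SRP19 (ENSG00000153037, chr5:112196885-112234068, plus strand), the assembly factor of the S domain, had the lowest values of the group. It held 358, 117 and 303 IP reads against 765, 545 and 576 input reads, which gave -1.47, -2.37 and -1.62. Its interval overlapped that of SRP9 in SK-Mel-103 and that of at least 1 other SRP gene in each UACC-62 sample. Part of its exons is shared with the read-through gene ENSG00000258864, in which 138, 38 and 88 of these IP reads lay, and they cannot be assigned to either gene. The strand opposite to SRP19 held 633, 402 and 609 IP reads in listed bins, while the other 7 genes had between 0 and 13 in any sample. SRP54 (ENSG00000100883, chr14:35451163-35498892, plus strand), the GTPase, held 412, 166 and 365 IP reads against 595, 584 and 690 input reads. Its log2 IP over input was -0.90, -1.97 and -1.61, the widest gap between the lines of the group, with a difference of 0.89 between SK-Mel-103 and the UACC-62 mean of -1.79 ± 0.25 (SD, n = 2).

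SRP68 (ENSG00000167881, chr17:74034856-74068598, minus strand) and SRP72 (ENSG00000174780, chr4:57333783-57369847, plus strand), which bind 7SL as a dimer, differed from each other. SRP68 held 245, 222 and 215 IP reads against 384, 675 and 406 input reads, with log2 IP over input of -1.02, -1.76 and -1.61. SRP72 held 1887, 643 and 1528 IP reads against 1948, 1504 and 1770 input reads, with -0.42, -1.38 and -0.91. Their counting intervals did not overlap in any sample, SRP72 being the higher. The receptor subunit SRPRA (ENSG00000182934, chr11:126132833-126139039, minus strand) had the highest values of the group in all 3 samples, -0.37 (interval -0.59 to -0.14), -1.17 (-1.36 to -0.99) and -0.87 (-1.06 to -0.68), from 337, 365 and 431 IP reads against 335, 737 and 485 input reads. These intervals overlapped those of SRP72 in every sample, so the order of SRPRA and SRP72 was not settled. SRPRB (ENSG00000144867, chr3:133502867-133544616, plus strand), the membrane-bound receptor subunit, held 546, 1218 and 1075 IP reads against 708, 2764 and 1812 input reads, which gave -0.75, -1.34 and -1.45.

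SK-Mel-103 lay above both UACC-62 samples for 8 of 8 genes, as it did for 61.0% of the 5318 genes. With the median over all protein-coding genes with listed bins in each sample set to 0, this was 8 of 8 against 51.4%. The count depends on that choice. If the medians of the 5318 genes were set to 0 instead, SRP14 and SRP19 would not have SK-Mel-103 above UACC-62 replicate 3. Without centring, the difference between SK-Mel-103 and the UACC-62 mean ranged from 0.36 for SRP14 to 0.89 for SRP54. The SD between the UACC-62 samples was 0.08 for SRPRB and 0.10 for SRP68, but 0.53 for SRP19, as large as that gene's difference between the lines. UACC-62 replicate 3 exceeded replicate 1 for 7 of 8 genes, SRPRB being the exception, and for 3980 of the 5318 genes, so most of the spread between the replicates went the same way across genes.

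The order of the mRNAs in the input differed from their order in IP over input. In RPKM, taken over the main transcript and the listed reads, the mean input level was 402 for SRP9, 137 for SRP14, 72.5 for SRPRB, 49.9 for SRP72, 31.2 for SRP54, 25 for SRP19, 18.6 for SRPRA and 18.4 for SRP68. On the same scale the mean IP level was 131 for SRP9, 54.8 for SRP14, 30 for SRPRB and 28.9 for SRP72, and between 6.47 and 11.5 for the others. SRPRA, the highest in IP over input, was thus among the lowest in level. The input level of SRPRB was 32.5 in SK-Mel-103 and 106 and 79 in the UACC-62 replicates, the widest relative gap in level between the lines, and its IP level followed with 19.3, 41.7 and 28.9. Only passing bins enter these levels, which understates lowly covered mRNAs.

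**Figure D2:**
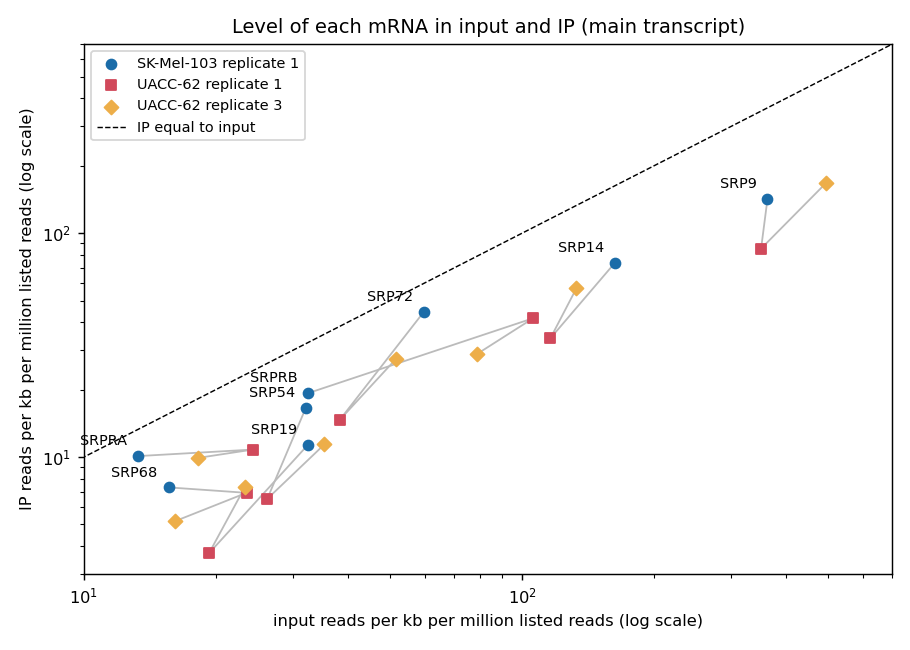
IP against input level of the 8 SRP mRNAs in the 3 IP samples, both in RPKM over the main transcript and the listed reads, on log axes; grey lines join the 3 samples of a gene, labelled at its SK-Mel-103 point, and the dashed line marks IP equal to input. All 24 points lie below the dashed line, and SRP9 is the highest on both axes in every sample.

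Following the read filter of the methods, a bin with more than 30 IP reads in all 3 samples was called a common peak. Common peaks lay in 2 of 8 SRP genes, SRP9 with 16 and SRP14 with 2, while 32.5% of the 5318 genes and 17.1% of the 10319 protein-coding genes with listed bins in all 3 samples had at least 1. Without UACC-62 replicate 1, common peaks lay in 4 of 8 genes, with 26 in SRP9, 9 in SRP14, 5 in SRP72 and 1 in SRP19, against 41.0% of the 5318 genes. Without UACC-62 replicate 3 they lay in 3 of 8, SRP72 being added with 1, against 34.0%. In single samples 4, 4 and 6 of the 8 genes had a bin above 30 reads, against 51.8%, 44.1% and 58.6% of the 5318 genes. SRP72 had 13, 1 and 7 such bins, but none shared by all. SRPRB had 0, 9 and 9, of which 6 were shared by the UACC-62 replicates, in the line where its input was also higher. SRP19 had 1, 0 and 2, SRP54 had 0, 0 and 1, and SRPRA and SRP68 had none in any sample.

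In the main transcript, the common peaks of SRP9 ran from 70 nt before the stop codon to 1030 nt after it. There 1 lay in the coding region and 15 in the 3′ UTR. The coding one is 3′ UTR in another annotated transcript, and the 3′ UTR shares given below count it as 3′ UTR. The 16 common peaks held 38 to 135, 31 to 64 and 53 to 143 IP reads, against 38 to 338, 82 to 335 and 108 to 422 input reads. Their median log2 IP over input was -1.54, -1.97 and -1.75, and 2, 0 and 0 of the 16 were above 0. The bin with the most IP reads, 930 nt after the stop codon, held 135, 60 and 143 IP reads against 310, 335 and 373 input reads. The common peak with the highest IP over input in SK-Mel-103, 250 nt after the stop codon, held 76 IP reads against 43 input reads there (log2 0.43), but 41 against 82 and 111 against 108 in the UACC-62 replicates (-1.14 and -0.66). High IP counts in SRP9 thus lay where input counts were high. Over the 69, 72 and 77 listed bins of SRP9, Spearman's rho between IP and input reads was 0.78, 0.89 and 0.82, a description over neighbouring bins of the same libraries and not of independent points.

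The common peaks of SRP14 lay 223 and 263 nt after the stop codon. The first held 115, 73 and 157 IP reads against 257, 221 and 243 input reads, and the other 106, 78 and 162 against 162, 221 and 224. The neighbouring bin 283 nt after the stop codon, which covers the GRE of SRP14, held 66 IP reads against 14 input reads in SK-Mel-103 (log2 1.78), whereas the UACC-62 replicates had 24 against 46 (-1.07) and 52 against 57 (-0.83). The bin was therefore above 0 in SK-Mel-103 and below 0 in both UACC-62 samples. Of 42 bins of the 8 genes with at least 20 IP reads in all 3 samples, 0 were above 0 in all 3, and no test was run on them. The 20-nt bin of SRP14 at chr15:40328401-40328420 came nearest, with -0.21, -0.46 and 0.14.

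**Figure D3:**
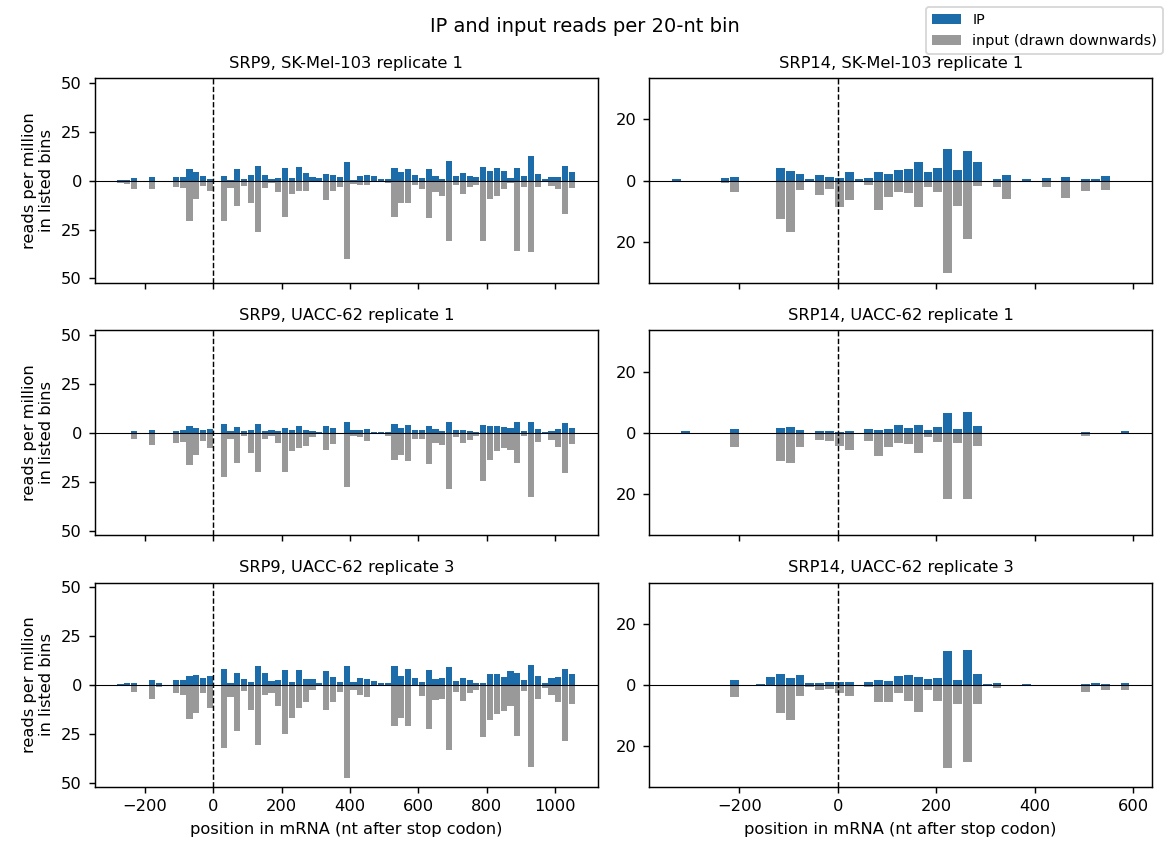
IP reads (upwards) and input reads (downwards), in RPM of the listed reads, in the 20-bp bins of SRP9 and SRP14, against the position in the main transcript in nt after the stop codon (dashed line), in the 3 IP samples. IP bars are shorter than the input bars at most positions, and the tall SRP14 bars at 223 and 263 nt are tall in both directions.

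SRP72 stood apart in how its reads were divided along the mRNA. In its 3′ UTR log2 IP over input was 0.14 (interval 0.02 to 0.26) in SK-Mel-103, and -1.03 (-1.20 to -0.86) and -0.52 (-0.65 to -0.38) in the UACC-62 replicates. In its coding region it was -1.39 (-1.56 to -1.23), -1.96 (-2.20 to -1.73) and -1.45 (-1.60 to -1.29). The intervals of the regions did not overlap in any sample, and the 3′ UTR was higher by 1.53, 0.93 and 0.93. Accordingly 74.6%, 69.4% and 65.4% of its IP reads lay in the 3′ UTR, against 50.5%, 54.2% and 49.8% of its input reads. Among 3309 genes with at least 50 IP reads in both regions of every sample, 66.7% had the higher value in the 3′ UTR in all 3 samples, and 16.7% by at least 0.93 in all 3. Of the 7 SRP genes that met this limit, 2 had the 3′ UTR higher in all 3 samples, SRP72 and SRP68, the latter by only 0.01, 0.10 and 0.06. SRP9 met the limit only through bins that count in both regions.

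The other SRP genes showed smaller or mixed differences between the regions. For SRP14 the 3′ UTR minus coding difference was 0.51, 0.65 and -0.15, and for SRP54 it was 0.38, -0.41 and 0.04. SRP9 had 0.08, 0.11 and -0.17, with 97.8%, 96.8% and 97.2% of its IP reads and 97.9%, 97.5% and 97.7% of its input reads in the 3′ UTR, with overlapping intervals of the IP and input shares in each sample. SRPRA had the smallest share of its IP reads in the 3′ UTR, with 19.3%, 21.6% and 21.6% of IP reads in the 3′ UTR against 20.6%, 27.7% and 21.9% of input reads. In SRPRB the IP shares were 71.8%, 67.1% and 75.3%. For SRP9 and SRP19 many 3′ UTR bins are coding in another annotated transcript and enter the values of both regions. The SRP9 difference thus sets some bins against themselves, as only 37, 44 and 93 of its coding IP reads lay outside the 3′ UTR. The share of both genes depends on which region is placed first.

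The higher values of SRP72 were spread over its 3′ UTR. In SK-Mel-103 the log2 IP over input of successive 500-nt stretches after the stop codon was -0.02, 0.23, 0.10 and 0.92, the last of them from 117 IP reads. In UACC-62 the first stretches gave -1.07, -1.01 and -0.97 in replicate 1, and -0.64, -0.38 and -0.53 in replicate 3. The bin of SRP72 with most IP reads, 444 nt after the stop codon, held 98 against 53 input reads (0.50), 24 against 52 (-1.24) and 46 against 52 (-0.87). Input counts of that bin were thus nearly equal in number in the 3 samples, and the IP count was highest in SK-Mel-103. Spearman's rho between IP and input reads over the bins of SRP72 was 0.38, 0.35 and 0.45, lower than in SRP9.

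**Figure D4:**
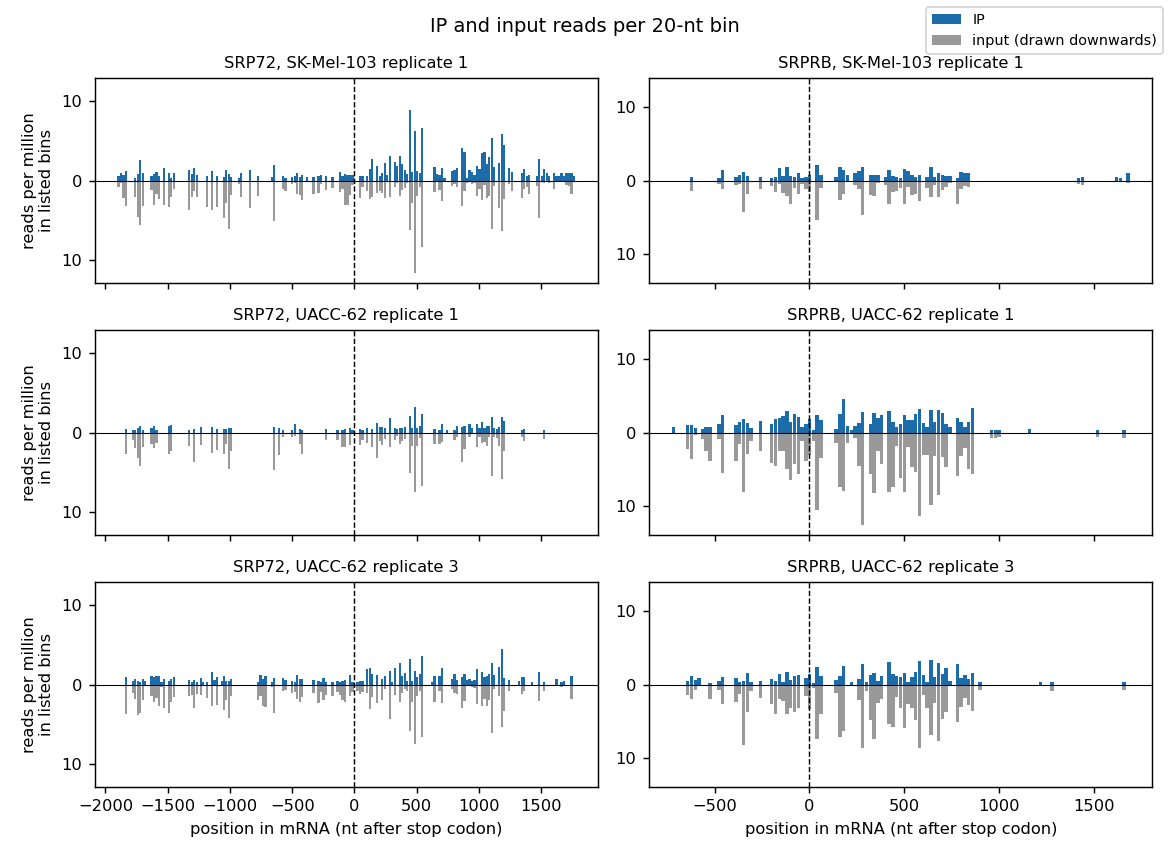
IP reads (upwards) and input reads (downwards), in RPM of the listed reads, in the 20-bp bins of SRP72 and SRPRB, against the position in the main transcript in nt after the stop codon (dashed line), in the 3 IP samples. In SRP72 the IP bars are taller after the stop codon than before it, most of all in SK-Mel-103, and in SRPRB IP and input bars are both taller in UACC-62.

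GREs were present in the 3′ UTRs of 4 of 8 SRP genes, against 56.4% of genes with an annotated 3′ UTR, and these included the lowest gene in IP over input as well as one of the highest. SRP19, the lowest, had 3, SRP72, near the top, had 2, SRP14 had 1 and SRP9 had 1, the last in an alternative transcript only. SRP54, SRP68, SRPRA and SRPRB had none. The 23-nt stretch of joined matches in SRP19 (chr5:112204092-112204114), which holds an 11-nt match without mismatch, had no listed bin within 100 nt in any sample. Around the upstream GRE of SRP72 the bins within 100 nt held 185, 75 and 145 IP reads against 100, 114 and 113 input reads, that is 0.51, -0.76 and -0.34. Over both GREs of SRP72 the values were 0.53, -0.76 and -0.33, against 0.07, -1.07 and -0.55 in the rest of the 3′ UTR, higher near the GREs in each sample. The downstream GRE had no listed bin within 100 nt in UACC-62 replicate 1, so the value there came from the upstream GRE alone. In SK-Mel-103 and UACC-62 replicate 3 the downstream GRE had 60 and 27 IP reads. The values near the GREs rest on 245, 75 and 172 IP reads, and the interval of the difference was not computed. SRP14 showed -0.90, -1.53 and -1.20 near its GRE and -1.19, -1.78 and -1.39 elsewhere in the 3′ UTR. SRP19 had no such order, with -1.56, -2.28 and -1.87 near its GREs and -1.57, -2.48 and -1.56 elsewhere. The GRE at chr5:112203318-112203328, not shown above, had 130, 47 and 104 of the 134, 47 and 109 IP reads near SRP19 GREs. SRP9 was lower near its GRE in the UACC-62 replicates, with -2.21 and -1.78 from 6 and 16 IP reads against -2.01 and -1.55 elsewhere, and had no listed bin there in SK-Mel-103.

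The 5-mers lay in few of the bins with many reads, at shares near those of all 3′ UTR windows. TGTTT lay in 1 of the 18 common peaks (5.56%) and TGTGT in 0 of 18, against 4.39% and 2.85% of all 20-nt windows of annotated 3′ UTRs. Of the 89 bins with more than 30 IP reads in at least 1 sample, 8 held either 5-mer (8.99%), as did 22 of 318 listed 3′ UTR bins of the group (6.92%) and 6.81% of all 3′ UTR windows. A motif found here is a match of letters and was not taken as a binding site.

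The RNA of the particle is transcribed from near-identical 7SL genes that share reads, so the values of each copy are uncertain, and RN7SL1 was not analysed here. RN7SL2 held 2875, 1641 and 3612 IP reads in 2 or 3 listed bins, with log2 IP over input of 0.76, -0.67 and -0.99. RN7SL3 had 38, 44 and 69 IP reads, with 0.59, -0.64 and -1.43. For both copies SK-Mel-103 was above 0 and both UACC-62 samples were below 0. None of the 11 annotated pseudogene copies of SRP9, SRP14, SRP68 and SRP72 held a listed bin.

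Most genes that act beside SRP also lay below 0, with a wider range of values. Of 37 genes of the translocon, signal peptidase, oligosaccharyltransferase and the tail-anchor and nascent chain factors, 30 were below 0 in all 3 samples and 3 were above 0 in all 3, against 43.2% and 31.6% of the 10319 genes with listed bins in all samples. Among the 5318 genes with at least 100 IP reads in every sample, a limit that 31 of the 37 reached, these shares were 55.8% and 28.5%. Without UACC-62 replicate 1 the number above 0 was 6. Medians over the 37 genes were -0.81, -1.19 and -1.23. The genes above 0 were SSR1, a subunit of the translocon-associated complex, with 0.88, 1.19 and 0.85, MAGT1, a subunit of oligosaccharyltransferase, with 0.79, 0.48 and 0.31, and SEC61A2, which had only 7, 9 and 27 IP reads. TRAM2, a translocon-associated membrane protein, followed with 0.31, -0.05 and 0.79. At the other end were NACA, a subunit of the nascent polypeptide-associated complex, with -1.61, -2.78 and -2.23, the translocon subunit SEC61G with -1.03, -2.55 and -1.62, and OST4 of the oligosaccharyltransferase with -1.48, -2.53 and -2.12. Common peaks lay in 19 of the 37 genes, against 17.1% of the 10319 genes and 32.5% of the 5318 genes, and SSR1 had 50. By distance over the 3 samples' log2 IP over input, the genes nearest to SRPRA were PRKD3 (0.011), DMTF1 (0.0541) and ESYT2 (0.0715).

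**Figure D5:**
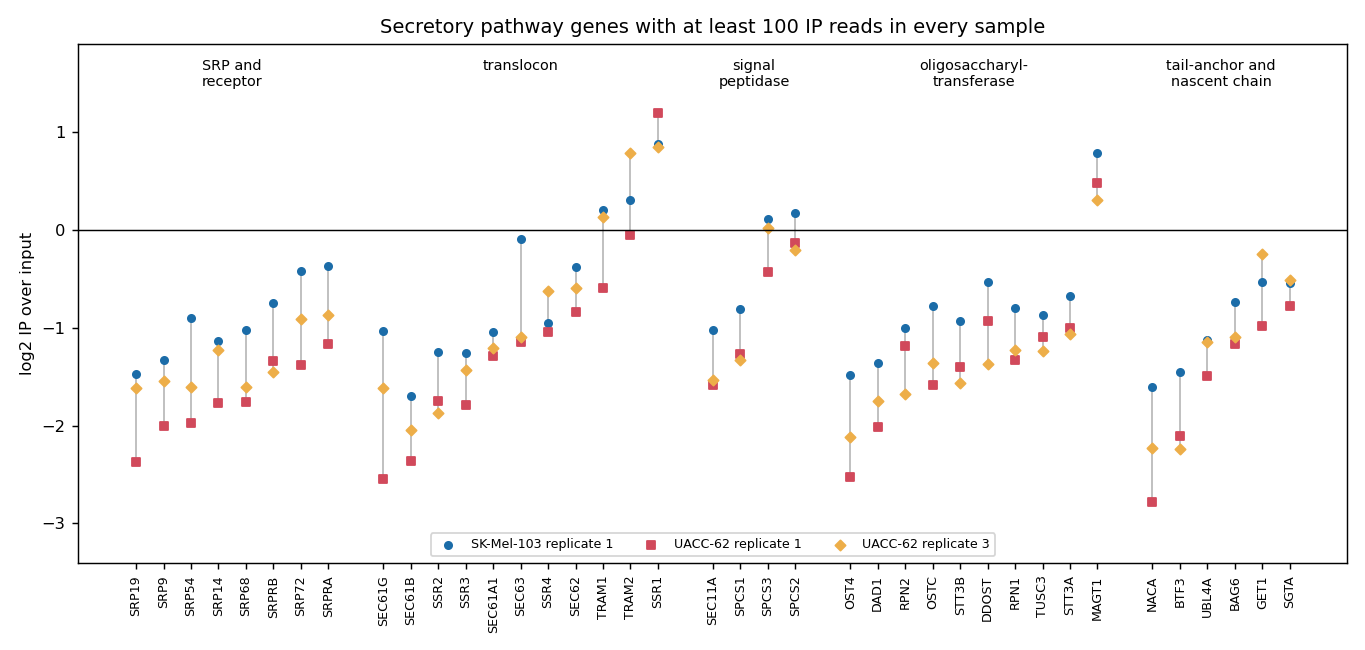
Log2 IP over input (y axis) of the SRP genes and of 31 other secretory pathway genes with at least 100 IP reads in every sample (x axis, by complex), with 1 point per IP sample and a grey line over their range. SSR1 and MAGT1 have all 3 points above 0, while the SRP block lies entirely below it.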

How the data were processed

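RIP-Seq peak lists of 3 IP samples were used, for each of which the authors took the matching input as reference. Per the methods and the labels, the authors aligned 40-nt reads of ribosomal RNA-depleted libraries to GRCh37 and called peaks with Piranha on 20-bp bins. The submitters' processing notes name TopHat2 2.0.4, Bowtie 0.12.7 and SAMtools 0.1.16. The count of IP reads per bin was deposited by the authors as whole, unnormalised reads in passing bins only. The p-value of each bin, under 0.05, is as deposited. The methods give 0.05 as a false discovery rate, and the lists themselves carry no mark of adjustment. The ratio that served the authors as input covariate fills the final column, where 0.01 means no input.

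Dividing the covariate by its smallest step returned whole input reads, within 0.0020 of a whole number. Bins were placed in GENCODE 44 (GRCh37) exons on the reverse of the listed strand, with the 3′ UTR placed before the coding region, and a region value for the coding region took every bin with its centre in a coding exon. Peaks had more than 30 IP reads, and a pseudocount of 1 read was used. Members and gene lists were chosen with earlier results of these data known. Named pathway genes were the 3 highest and the 3 lowest by the lowest of the samples' values with at least 100 IP reads each, beside the counts of 5 or fewer, and the 3 genes nearest to the highest SRP gene. No test was made, since the lists hold passing bins only and SK-Mel-103 had 1 sample. Scripts were tested on simulated data. Alternatives changed the read filter (none, or 100), the p-value (0.01), strand, region order, scaling, pseudocount (0.5), bins without input, transcripts (added after seeing the data) and left out each UACC-62 replicate. The software was scipy 1.17.1, pandas 2.3.3, numpy 2.4.6 and matplotlib 3.10.9 under Python 3.11.15.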

Additional observations from a re-analysis of the deposited data

Results flagged for a closer look

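Intronic bins lay outside the exonic comparisons and had a log2 IP over input whose 95% counting interval lay above 0 in all 3 samples for 3 of the SRP genes. In SK-Mel-103 and UACC-62 replicates 1 and 3, the introns of SRP9 had 277, 610 and 264 IP reads against 63, 145 and 106 input reads, with log2 IP over input of 1.74, 1.91 and 0.61. Its exons were below 0 in the same samples. Most of these reads lay between chr1:225971071 and 225974563 (GRCh37, plus strand), an intron with 196, 464 and 154 IP reads against 37, 49 and 11 input reads and values of 2.0, 3.06 and 2.99. SRP54 introns held 66, 15 and 11 IP reads against 15, 1 and 0 input reads, and SRP68 introns held 24, 18 and 20 against 5, 0 and 0. The share of all genes that met the interval criterion in all 3 samples was not computed. Introns lay above 0 in 91.6%, 92.3% and 91.1% of genes with at least 100 intronic IP reads, and above exons in 91.9%, 92.2% and 92.1%. SRP54 and SRP68 did not reach that limit. The medians of those genes were 1.39, 2.13 and 2.74, so the direction was common to most genes of that depth. What underlies it was not tested.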

How the results depend on the processing

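The 24 values of log2 IP over input stayed below 0 with a pseudocount of 0.5 read, with bins that have input only and with exons of the main transcript only (the last added after seeing the data), and 0 of 8 genes were above 0 in all 3 samples under every alternative run. SRP72 in SK-Mel-103 turned to 0.17 with bins over 30 IP reads only and to 0.14 with the 3′ UTR only. Common peaks lay in 8 genes with no read filter, in 0 with more than 100 IP reads, in 0 with the listed strand taken as the transcript strand and in 2 at a p-value under 0.01. Leaving out a UACC-62 replicate gave 3 to 4 genes. Without replicate 1 there were 4, as SRP19 gained 1 and SRP72 gained 5 peaks, and SRP9 had 26 and SRP14 had 9. Without replicate 3 there were 3, SRP72 gaining 1. Without replicate 1, 6 of the 37 pathway genes were above 0 in all samples, and without replicate 3 there were 3. With the coding region placed first, the 3′ UTR held 89.7%, 88.8% and 88.6% of the IP reads of SRP9. No paired analysis was possible because no result comes from a test and the lines share only replicate 1. Depth limits the low genes: SRP19 in UACC-62 replicate 1 had 117 IP reads in 14 bins, and bins that failed the caller are not listed, so their reads are unknown.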
